A study of Mus musculus with 3 samples.

Results

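D10Wsu102e is a protein-coding gene of mouse chromosome 10 whose annotated transcript ends in a very long 3′ untranslated region (UTR), and this region gave small RNAs of both the short and the long size class in oocytes. Reads were assigned to the gene when, after removal of the 3′ linker, their first 20 nt matched its GENCODE M21 exons perfectly on either strand. It was 1 of 23309 genes with a matched read. A total of 11635 reads matched the gene at a single place among all annotated transcripts and are called unique here. Another 108110 reads matched it among several places, nearly always in other genes too. The gene was chosen from these same 3 libraries for carrying reads of both sizes, so its read numbers, strands and lengths are a description and no test is given. In GRCm38 the gene lies at chr10:83360221-83488505 on the plus strand (128285 nt) and has 4 exons of 153, 87, 137 and 122802 nt. Exon 4 holds the whole UTR, chr10:83365920-83488505, which is 122586 nt long with the stop codon. RefSeq annotates the gene only as far as 83368835.

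The RNA came from fully grown oocytes of mice, which stand at the end of oocyte growth and before ovulation. The females had been given 5 IU of PMSG, a hormone that stimulates the ovarian follicles, 48 hours before. All 3 libraries share this treatment, and the mouse strain was not given in the sources used here. RNA of 19-24, 24-30 or 19-30 nt was cut from gels and sequenced, with 1 library for each size window. No difference between libraries therefore has a replicate check, and the 95% Wilson and exact Poisson intervals given here cover counting error only. The libraries held 764539, 1484509 and 943811 reads, of which 315470, 343673 and 146651 matched an annotated transcript. All reads of the 19-24 nt library were taken as short, as were reads of the other libraries sized at 24 nt or less. The rest were long. The 6 early embryo microRNAs looked for made up 0.237%, 0.0593% and 4.87% of microRNA reads in the 19-24, 24-30 and 19-30 nt libraries, and the 4 granulosa and stroma microRNAs 17.4%, 2.33% and 1.86%. The 3 blood microRNAs made up 1.36%, 0.555% and 0.0594%. Of 3 germline microRNAs looked for, 2 were found in the annotation, and they made up 0.0458%, 0.0169% and 1.18%. No annotated microRNA of these lists was at 0 in every library, and the part of follicle cells in the reads of D10Wsu102e was not tested.

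Piwi-interacting RNAs (piRNAs) are small RNAs of germ cells that guide Piwi proteins to transposon RNA. Primary piRNAs tend to start with U. When a Piwi protein cuts its target, the cut falls opposite bases 10 and 11 of the guide, so a new piRNA made from the cut RNA overlaps its guide by 10 nt and, facing a U, tends to carry A at base 10. Endogenous small interfering RNAs (siRNAs) are shorter. Dicer cuts them from double-stranded RNA as duplexes with 2 nt 3′ overhangs, and mouse oocytes are known for making many of them. The 2 classes can thus be looked at by length, strand, first base, base 10 and the overlap of opposite reads.

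The sequences that carry the overlap are those of opposite long reads that overlap by 10 nt from their 5′ ends. The 4 pairs with the highest product of read numbers are given 5′ to 3′ as the first 20 nt of each read, taken from the GENCODE M21 transcript they match, with T for U. Capitals mark the 10 nt by which the pair overlaps, so that base 1 of a read faces the last capital of its partner.
Pair 1 sense, chr10:83469494-83469513 (+): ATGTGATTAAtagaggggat
Pair 1 antisense, chr10:83469484-83469503 (-): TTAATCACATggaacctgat
Pair 2 sense, chr10:83469724-83469743 (+): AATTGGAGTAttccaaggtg
Pair 2 antisense, chr10:83469714-83469733 (-): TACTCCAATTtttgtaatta
Pair 3 sense, chr10:83438459-83438478 (+): TGTGCTATGAtgctgcgatt
Pair 3 antisense, chr10:83438449-83438468 (-): TCATAGCACAgaaggattgg
Pair 4 sense, chr10:83420717-83420736 (+): TATGTCCAATttccagagtg
Pair 4 antisense, chr10:83420707-83420726 (-): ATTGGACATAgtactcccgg
A read that starts with U faces an A at base 10 of its partner, since the pair is complementary. In pairs 1 and 2 the antisense read starts with U and the sense read has A at base 10. In pair 4 the sense read starts with U and the antisense read has A at base 10. In pair 3 both reads start with U and both have A at base 10.

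Short reads were also found on both strands. The duplex with a 2 nt 3′ overhang on each side and the highest product of reads is shown as whole 21 nt reads, with the paired bases in capitals and the overhangs in lower case.
Duplex 1 sense, chr10:83439979-83439999 (+): AAACCTCCGGACAGAAGGTca
Duplex 1 antisense, chr10:83439977-83439997 (-): ACCTTCTGTCCGGAGGTTTgg
The sense read was seen 3 times in the 19-24 nt and 9 times in the 19-30 nt library. The antisense read was seen 6 times in the 19-24 nt and 2 times in the 19-30 nt library. The most frequent 5′ ends of each class and strand are shown next as their first 20 nt, with the first base in capitals.
Long sense, chr10:83422698-83422717 (+): Ttgtgaaattgtttgtgcag
Long antisense, chr10:83439257-83439276 (-): Tgcagttgcaaaagagaaag
Short sense, chr10:83439824-83439843 (+): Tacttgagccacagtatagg
Short antisense, chr10:83438840-83438859 (-): Tgggcacacaggtgattgag
The long sense end had 157 reads in the 24-30 nt library plus 14 in the 19-30 nt one. The long antisense end had 83 and 4 reads in these libraries. These 2 ends held 2.58% of the 6616 long sense reads and 8.72% of the 998 long antisense reads. The short sense end had 17 reads in the 19-24 nt library plus 54 in the 19-30 nt one, and the short antisense end 12 and 67. All 4 ends were seen in at least 2 libraries.

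Unique reads of the gene numbered 1453, 7437 and 2745 in the 19-24, 24-30 and 19-30 nt libraries. Scaled to 1000000 reads matched to transcripts (RPM), this was 4606 (exact Poisson interval 4372 to 4849) in the 19-24 nt, 21640 (21151 to 22137) in the 24-30 nt and 18718 (18024 to 19432) in the 19-30 nt library. A count of 0 would allow up to 9.51, 8.73 and 20.5 RPM. The gene was thus far above the limit of detection in each library. MicroRNAs and other small RNA classes filled most of the 19-24 nt library. Over the matched reads outside these classes, the 3 levels were 25376, 27546 and 23728 RPM, a much narrower spread. Per kb of exon the 3 libraries held 11.8, 60.4 and 22.3 unique reads. With multiple matches added, each weighted by 1 over its number of places, the level was 10380, 39638 and 45902 RPM.

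The 19-30 nt library sized both classes in the same reads. There the unique reads of D10Wsu102e peaked at 22 nt (894 of 2745 reads, 32.6%), followed by 21 nt with 640 reads and 23 nt with 368. From 25 to 30 nt each length held 53 to 84 reads and formed no second peak. Reads of 20 to 23 nt made up 80.7% of the antisense reads (547 of 678, Wilson interval 77.5 to 83.5) and 76.0% of the sense reads (1570 of 2067, 74.1 to 77.7). Reads of 25 to 30 nt made up 11.4% of the antisense (9.18 to 14.0) and 17.2% of the sense reads (15.6 to 18.9). The short class was therefore the larger on both strands among the sized reads of this library. The 24-30 nt library by its gel window and its 26 nt reads held mostly long reads (7182 of 7437). Left out of these lengths were 969 unique reads of the 19-30 nt library without a called linker, set aside as over 30 nt. A missed linker would place shorter inserts among them, and their part in the length shares was not tested.

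**Figure D1:**
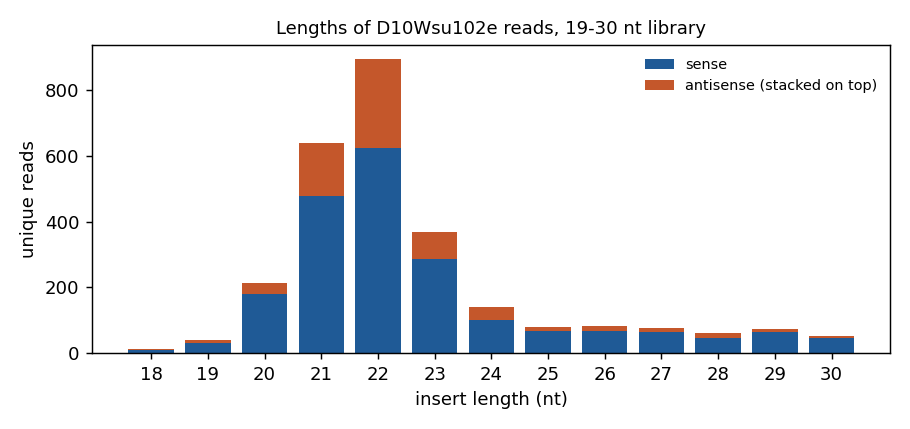
Unique reads of D10Wsu102e in the 19-30 nt library (y axis, reads) by insert length (x axis, nt), with sense reads in blue and antisense reads stacked on top in orange. The tallest bar, at 22 nt, holds 894 reads, and each length from 25 to 30 nt holds 53 to 84.

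Nearly all reads came from the part of the UTR that only GENCODE annotates. Past the end of the RefSeq gene lay 1450 of 1453 unique reads in the 19-24 nt, 7409 of 7437 in the 24-30 nt and 2744 of 2745 in the 19-30 nt library. Reads of the gene's own transcript and reads of another transcript on the same strand past the RefSeq end cannot be told apart here, so counts, levels and ranks of D10Wsu102e are those of its GENCODE exons. Only 3 short and 3 long reads came from before the UTR, the stretch that holds the coding sequence. From the start of the UTR to the RefSeq end there were 26 long sense reads and no short ones. A block of 98000 nt, chr10:83376000-83473999, held 99.8% of the short and 99.0% of the long unique reads. The last 1056 nt of the gene overlap Aldh1l2, a folate enzyme gene on the opposite strand, and held 0 unique reads. Where the antisense RNA of the locus starts was not tested. Of the 5 genes within 100 kb, Aldh1l2 had 2 unique reads and Washc4, Slc41a2, Gm40723 and Gm47170 had 0. Of the 20-mers in the exons, 89679 of 123160 (72.8%) occurred once among annotated transcripts, so the unique reads cannot show the other stretches.

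**Figure D2:**
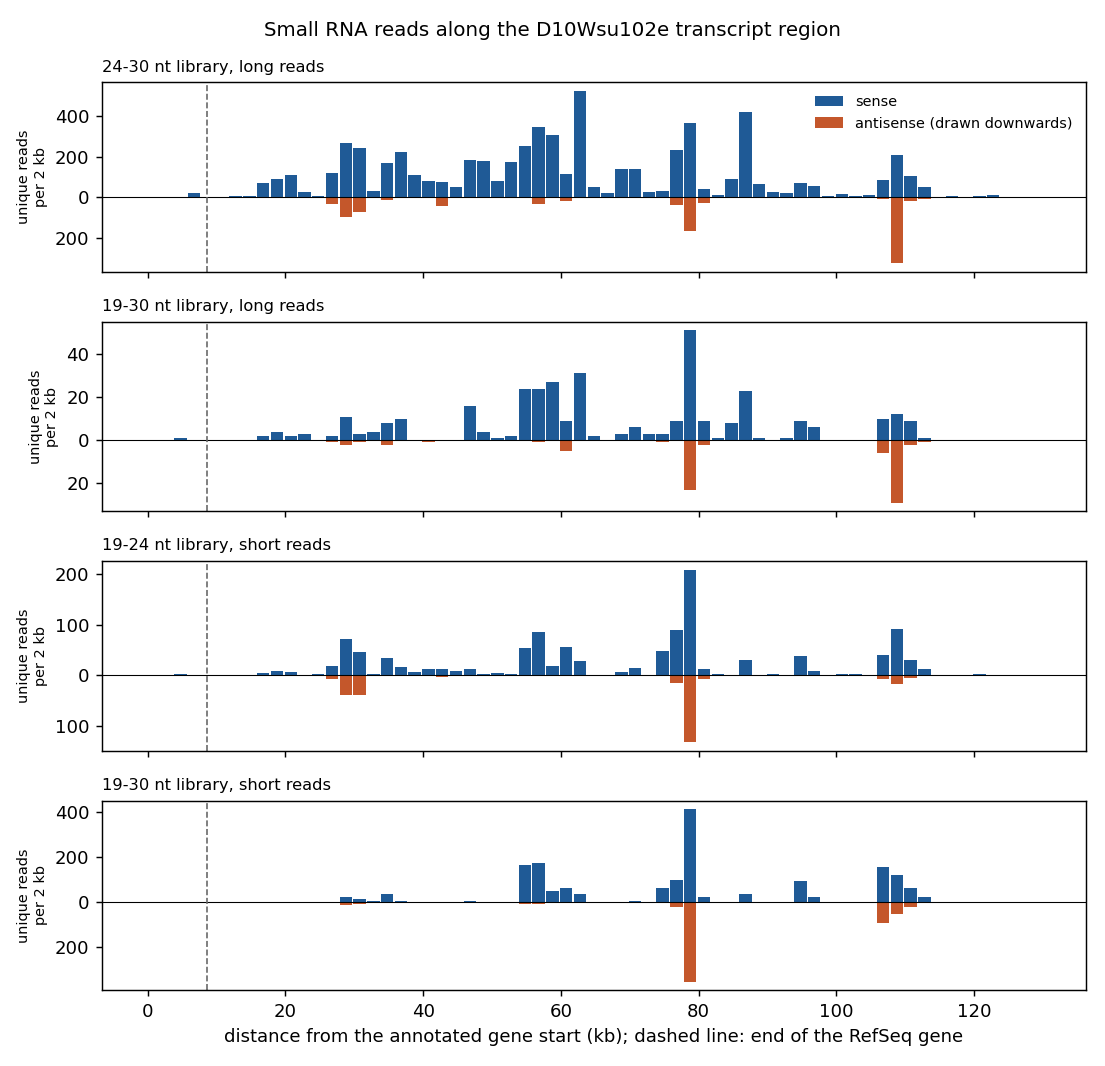
Unique reads per 2 kb (y axis, reads; sense upwards, antisense downwards) along D10Wsu102e by distance from the annotated gene start (x axis, kb), for long reads of the 24-30 and 19-30 nt libraries and short reads of the 19-24 and 19-30 nt libraries. Sense long reads run along most of the gene past the RefSeq end (dashed line), while antisense reads of both classes stand in a few places.

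Sense reads outnumbered antisense reads in each class and library. In short reads the antisense strand held 292 of 1453 reads (20.1%, Wilson interval 18.1 to 22.2) in the 19-24 nt, 27 of 255 (10.6%, 7.38 to 15.0) in the 24-30 nt and 601 of 2313 (25.98%, 24.2 to 27.8) in the 19-30 nt library. In long reads it held 921 of 7182 (12.8%, 12.1 to 13.6) in the 24-30 nt and 77 of 432 (17.8%, 14.5 to 21.7) in the 19-30 nt library. Within the 19-30 nt library, where both classes share 1 preparation, the antisense share was higher in short than in long reads and the intervals did not overlap. The 24-30 nt library did not show this order, since its few sized short reads had a share below that of its long reads, with overlapping intervals. All these intervals count each copy of an insert as a separate read. By distinct inserts the 19-30 nt library had 372 antisense and 1209 sense short, and 66 antisense and 302 sense long ones. No intervals were made for these, so the separation holds for read counts only.

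To see where the strands met, the gene was divided into 65 windows of 2 kb. Windows with at least 10 unique long reads in the 24-30 nt library were called both-strand where 10% or more of these were antisense, and mostly sense otherwise. This division was made after the data were seen. It gave 11 both-strand windows (22 kb), 37 mostly sense windows (74 kb) and 17 windows with too few reads. Nearest to the 10% border was a share of 13.3% on the upper and 7.96% on the lower side. The both-strand windows formed 5 blocks. Block 1, chr10:83386000-83391999, had 201 antisense and 632 sense long reads in the 24-30 nt library. Block 4, chr10:83436000-83441999, had 231 antisense and 647 sense. Block 5, chr10:83468000-83473999, had 353 antisense and 370 sense. Its windows were unlike each other, with 326 antisense and 211 sense reads (60.7% antisense) in chr10:83468000-83469999 and antisense shares of 15.1% and 13.3% in the other two. The single windows of block 2 (chr10:83402000-83403999) and block 3 (chr10:83420000-83421999) had 42 antisense and 74 sense, and 18 antisense and 117 sense reads.

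Short reads, which the division did not use, lay on both strands in the same windows. Their antisense share in the 19-24 nt library was 29.5% (271 of 919, 26.6 to 32.5) in both-strand and 4.02% (21 of 523, 2.64 to 6.06) in mostly sense windows. In the 19-30 nt library it was 36.1% (476 of 1318, 33.6 to 38.7) in both-strand and 12.6% (125 of 994, 10.7 to 14.8) in mostly sense windows. Long reads of the 19-30 nt library were antisense in 36.3% (66 of 182, 29.6 to 43.5) and 4.42% (11 of 249, 2.48 to 7.74) of cases. In each of these libraries and classes the intervals did not overlap. Of the antisense short reads in mostly sense windows of the 19-30 nt library, 90 of 125 lay in 1 window, chr10:83466000-83467999, which adjoins block 5 and had 7 antisense and 88 sense long reads.

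Block 4 was the richest source of short reads on both strands. It held 156 antisense and 310 sense short reads in the 19-24 nt library and 375 antisense and 536 sense in the 19-30 nt library. Block 5 held 25 antisense and 135 sense in the 19-24 nt and 76 antisense and 206 sense in the 19-30 nt library. Block 1 differed between the libraries, with 84 antisense and 135 sense short reads in the 19-24 nt but 24 antisense and 37 sense in the 19-30 nt library. Its share of the short reads was thus far smaller in the 19-30 nt library. In block 2 there were 4 antisense and 13 sense short reads in the 19-24 nt and 0 antisense and 1 sense in the 19-30 nt library. In block 3 nearly all short reads were sense, with 2 antisense and 55 sense in the 19-24 nt and 1 antisense and 62 sense in the 19-30 nt library. Some mostly sense windows were also rich in short reads, such as chr10:83414000-83415999 with 6 antisense and 167 sense and chr10:83416000-83417999 with 6 antisense and 173 sense short reads in the 19-30 nt library. Others held almost only long reads. The window chr10:83412000-83413999 had 176 sense long reads in the 24-30 nt library. It had 0 short reads beside 2 long ones in the 19-30 nt library.

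Short reads of the 19-30 nt library made up 87.9% of sense reads in both-strand windows (842 of 958, 85.7 to 89.8) and 78.5% in mostly sense windows (869 of 1107, 76.0 to 80.8). For sense reads the intervals did not overlap. Of antisense reads, short ones made up 87.8% in both-strand (476 of 542, 84.8 to 90.3) and 91.9% in mostly sense windows (125 of 136, 86.1 to 95.4), the other order and with overlapping intervals. Across the 44 both-strand or mostly sense windows that also had reads in the 19-30 nt library, the share of short reads in the 19-30 nt library had a Pearson r of 0.41 and a Spearman rho of 0.56 with the antisense share of long reads in the 24-30 nt library. These windows share the libraries and the transcript, and many hold few reads, so the values are descriptive. The share of 20-mers that occur once differed too, with a median of 64.4% (15.1 to 98.7) in both-strand and 80.1% (15.45 to 99.8) in mostly sense windows, and its part in the difference was not tested.

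**Figure D3:**
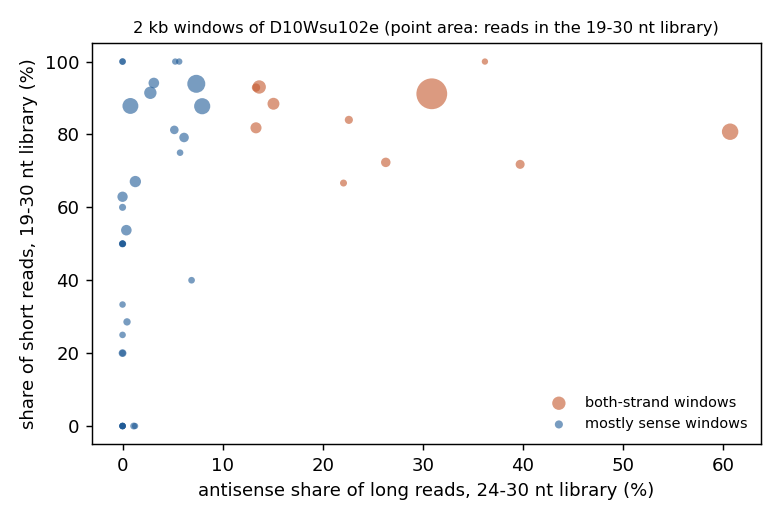
Share of short reads in the 19-30 nt library (y axis, %) against the antisense share of long reads in the 24-30 nt library (x axis, %) for the 44 windows of 2 kb with at least 10 long reads in the 24-30 nt library and any read in the 19-30 nt library, with both-strand windows in orange, mostly sense windows in blue and the point area growing with the reads in the 19-30 nt library. The both-strand windows stand at 66.7% short reads or more, while the mostly sense windows spread from 0 to 100%.

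Long reads mostly started with U. In the 24-30 nt library U was the first base of 64.6% of antisense (61.5 to 67.6) and 80.9% of sense long reads (79.9 to 81.9). In the 19-30 nt library it was 58.4% of 77 antisense (47.3 to 68.8) and 72.7% of 355 sense long reads (67.8 to 77.1). Sense short reads started with U in 65.8% of cases in the 19-24 nt (63.0 to 68.5) and 62.6% in the 19-30 nt library (60.2 to 64.8). Within the 19-30 nt library this was below the sense long reads, with intervals that did not overlap. Antisense short reads started with U in 62.0% (56.3 to 67.4) and 54.6% (50.6 to 58.5) of cases. The transcript itself holds 29.2% T and 25.99% A, so U at the first base was well above its composition in each class.

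At base 10 the classes parted. In the 24-30 nt library A stood at base 10 in 67.4% of antisense (64.3 to 70.4) and 41.2% of sense long reads (40.0 to 42.4). Ranges over the other bases leave out base 1, where A made up 15.4% of antisense and 9.90% of sense reads. At the other bases from 2 to 20, the share of A was 15.1 to 46.0% (median 29.0%) in antisense reads. In sense reads it was 18.8 to 30.7% (median 25.8%). Base 10 thus stood above every other base on both strands. In the 19-30 nt library A was at base 10 in 71.4% of antisense (60.5 to 80.3) and 38.6% of sense long reads (33.7 to 43.8), again the highest of all bases. Its 77 antisense reads reached 61.0% at another base, so the margin there is small. Short reads of the 19-24 nt library had A at base 10 in 25.7% of antisense (21.01 to 30.99) and 23.2% of sense reads (20.8 to 25.7), within the range of their other bases. Short reads of the 19-30 nt library had 35.8% in antisense (32.0 to 39.7) and 21.8% in sense reads (19.9 to 23.8), also within that range.

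**Figure D4:**
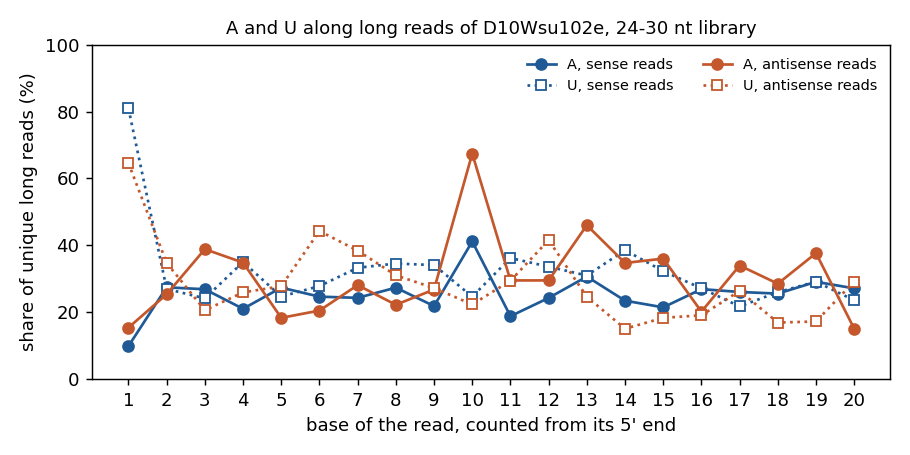
Share of A (filled circles) and U (open squares) at each of the first 20 bases (x axis, counted from the 5′ end; y axis, % of unique long reads of D10Wsu102e in the 24-30 nt library), sense in blue and antisense in orange. U peaks at base 1 (80.9% sense, 64.6% antisense) and A at base 10 (41.2% sense, 67.4% antisense).

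The share of A at base 10 of sense long reads followed the windows. In the 24-30 nt library it was 60.1% in both-strand (57.8 to 62.3) and 33.3% in mostly sense windows (31.9 to 34.7), and the intervals were far apart. In the 19-30 nt library it was 48.3% of 116 reads (39.4 to 57.3) and 34.0% of 238 reads (28.3 to 40.3), with intervals that overlapped. U at the first base of sense long reads ran the other way in the 24-30 nt library, at 75.4% in both-strand and 83.3% in mostly sense windows. The 19-30 nt library did not repeat that order, with 75.9% in both-strand and 71.4% in mostly sense windows.

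Opposite 5′ ends of long reads most often overlapped by 10 nt. Over the 3 libraries, 84 of 398 pairs of distinct ends (21.1%, 17.4 to 25.4) overlapped by 10 nt, and the other overlaps from 1 to 20 nt had 2 to 32 pairs (median 14). The 24-30 nt library alone gave 82 of 363 pairs (22.6%, 18.6 to 27.2). The 19-30 nt library gave 4 of 18 pairs, the most of any overlap but too few to weigh. Of the 84 pairs, 58 had a sense read that starts with U, 56 an antisense read that starts with U, 32 both and 2 neither. The pairs held 407 antisense reads, 40.8% of all antisense long reads, and 579 sense reads, 8.75% of the sense ones. An antisense long read was thus far more often part of a pair, beside far fewer antisense than sense ends in all (278 and 2255).

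The pairs were concentrated where both strands were read. Of the 84 pairs, 74 (88.1%) lay in both-strand windows, which have more antisense ends by the way they were chosen. Block 1 held 32 pairs, block 4 held 27, block 5 held 11, block 2 held 3 and block 3 held 1. Pair 1, in block 5, had 79 antisense reads (76 from the 24-30 nt and 3 from the 19-30 nt library) and 45 sense reads (43 and 2). Pair 2, in the same block, had 24 antisense and 35 sense reads, all in the 24-30 nt library. Pair 3, in block 4, had 9 antisense (8 and 1) and 72 sense reads (70 and 2). Pair 4, the only pair of block 3, had 20 antisense (15 and 5) and 27 sense reads (24 and 3). Pairs 1, 3 and 4 were therefore seen in both libraries that hold long reads. The sense 5′ end of pair 4 was also the second most frequent 5′ end of short sense reads, with 29, 17 and 2 reads in the 19-24, 24-30 and 19-30 nt libraries. That rank includes the 17 reads of the 24-30 nt library, where sizes rest on as few as 4 linker bases.

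**Figure D5:**
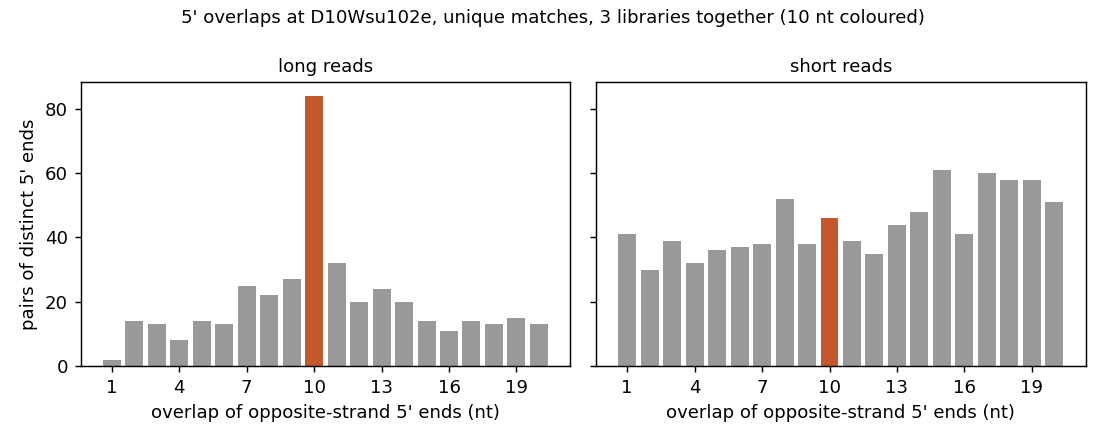
Pairs of distinct opposite 5′ ends of unique reads of D10Wsu102e (y axis, pairs) by their overlap (x axis, 1 to 20 nt), for long reads on the left and short reads on the right, the 3 libraries together, with the 10 nt overlap in orange. Long reads have 84 pairs at 10 nt and at most 32 elsewhere, while short reads have 46 at 10 nt and 30 to 61 elsewhere.

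Short reads showed no such peak. At 10 nt there were 46 of 884 pairs (5.20%, 3.92 to 6.87), and the other overlaps had 30 to 61 pairs, the most at 15 nt. By library it was 16 of 283 pairs in the 19-24 nt and 18 of 455 in the 19-30 nt library. Dicer duplexes of 21 and 22 nt with 2 nt overhangs would overlap by 19 and 20 nt. These 2 of the 20 overlaps counted held 109 of the 884 pairs (12.3%). For sense and antisense reads of equal length from 20 to 23 nt, there were 23 pairs with a 3′ overhang of 2 nt, beside 10 to 31 pairs at the other overhangs from -6 to 6 nt. The most, 31, were at 5 nt. A duplex signature of siRNAs was thus not detectable in the unique reads at this depth, and the name siRNA rests on the length and the strands.

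Short and long reads shared some of their 5′ ends. Of short antisense reads, 73 of 292 (25%, 20.4 to 30.3) in the 19-24 nt and 167 of 601 (27.8%, 24.4 to 31.5) in the 19-30 nt library started at a 5′ end of a long antisense read. Of short sense reads, 364 of 1161 (31.4%, 28.7 to 34.1) in the 19-24 nt and 447 of 1712 (26.1%, 24.1 to 28.2) in the 19-30 nt library started at a 5′ end of a long sense read. Most short reads on both strands thus began where no long read did. In the 24-30 nt library only reads of up to 22 nt could be sized, so a 23 or 24 nt read there counts as long. Its sized short reads had A at base 10 in 77.8% of 27 antisense reads (59.2 to 89.4) and 38.2% of 228 sense reads (32.1 to 44.6). At another base A reached 66.7% in these antisense and 47.8% in these sense reads, so base 10 did not stand apart on the sense strand.

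Double-stranded RNA can also form within a transcript that holds a sequence and its reverse complement. The transcript had 3 such inverted repeats of at least 150 nt by BLAST. The longest, of 468 aligned nt at 86.1% identity, joined chr10:83386010-83386450 with chr10:83431340-83431795. Its first arm held 0 unique reads and its second arm 18 short and 32 long sense reads. The others, of 292 and 186 nt, joined the second arm to stretches within chr10:83416735-83417233, and had 3 to 15 short reads in the second and 0 to 4 in the first arm. None of the arms held a unique antisense read. The part of these repeats in the small RNAs of the locus was not tested.

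Multiple matches gave another picture of the strands. These reads had a median of 29 places (15, 37 and 17 in the 19-24, 24-30 and 19-30 nt libraries), and 13.03% had over 100. In only 474 of 108110 reads did all places lie within D10Wsu102e. Weighted by 1 over their number of places, they added 1821, 6185 and 3987 reads to the gene in the 19-24, 24-30 and 19-30 nt libraries. Antisense matches made up 54.2% of the weighted short reads of the 19-24 nt library, with 58.1% for the 19-30 nt library. Of the weighted long reads they made up 60.4% (24-30 nt library) and 67.6% (19-30 nt library). Such reads may come from any of their other places, so the strand here is only that relative to D10Wsu102e. Over the 3 libraries, A was at base 10 in 57.3% of antisense and 58.6% of sense weighted long reads, nearly alike on both strands. The 10 nt overlap held 856 of 8528 pairs of long 5′ ends (10.04%, 9.42 to 10.7), with 308 to 518 pairs at the other overlaps. Short multiple matches had 1147 of 22281 pairs at 10 nt (5.15%, 4.87 to 5.45), with 966 to 1337 at the other overlaps. The most, 1337, were at 20 nt, beside 1230 to 1284 at each overlap from 16 to 19 nt. Overlaps of 19 and 20 nt together held 2568 pairs (11.5%). Short reads with 2 to 10 places also had the most pairs at 20 nt (473 of 7103). Whether these pairs are Dicer duplexes was not tested.

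Set beside other genes, D10Wsu102e was a large source of small RNAs in annotated exons, which its 123179 nt of transcript favours. Outside microRNA, tRNA and other small RNA classes, 224 genes had at least 50 unique reads. D10Wsu102e was the second of these by all unique reads and the third by long reads. It held 9.03% of the 44506 short and 6.60% of the 115279 long unique reads of all genes outside these small RNA classes. With 84 pairs at 10 nt it was the first by this count, and the next gene had 4. Of the 73 genes with at least 50 long reads, 8 (11%) had more pairs at 10 nt than at any other overlap, D10Wsu102e among them. Of the 19 genes with at least 50 short and 50 long reads, 7 (36.8%) had 10 to 90% antisense reads in both classes, again with D10Wsu102e among them. Carrying both classes on both strands was thus common among genes of this depth.

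Its share of A at base 10 lay near the middle of these genes. Over the 3 libraries, A was at base 10 in 44.5% of its long reads, against a median of 34.5% over the 73 genes, where its rank was 32. U was first in 78.3% of its long reads, against a median of 82.5%. The antisense share of its long reads was 13.1%, against a median of 21.7%. The genes nearest to D10Wsu102e in how their unique reads split over library, class and strand (Euclidean distance of the shares, over 3 libraries) were Gm44873 at 0.0923, Gm31392 at 0.106, Gm47164 at 0.107, Vmn2r53 at 0.116 and Vmn2r60 at 0.127. They had 245, 62, 181, 92 and 64 unique reads and at most 1 pair each at 10 nt, few reads beside the 11635 of D10Wsu102e.

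The 10 genes set beside D10Wsu102e as oocyte siRNA loci held few long reads. They were chosen with earlier results of these data known, so they are no independent contrast. D10Wsu102e had 4021 short and 7614 long unique reads, while 9 of the 10 siRNA genes looked at had unique reads, and these were mainly short. Of all 21951 protein-coding genes, 8261 (37.6%) had at least 1 unique read. Cwc22 had 891 antisense and 816 sense short reads, with 8 antisense and 10 sense long reads. The overlapping genes Pdzd11 and Kif4, a motor protein gene, had 309 antisense and 184 sense, and 185 antisense and 314 sense short reads, beside 10 antisense and 4 sense, and 4 antisense and 12 sense long reads. Optn had 267 antisense and 399 sense short reads, beside 5 antisense and 28 sense long reads. Cdk1, the cell cycle kinase gene, had 0. D10Wsu102e thus differed from these genes in its long reads, which is how it was chosen. The human counterpart of D10Wsu102e is known to help assemble box C/D small nucleolar RNPs, and of 11 genes of this assembly 8 had unique reads, 38 in all. The most were 13 in Znhit3, and the median was 1. The median of all protein-coding genes was 0.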

How the data were processed

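The deposited files hold untrimmed sequencing reads and their base qualities rather than counts or other values: 26 nt reads for the 19-24 and 24-30 nt libraries, and 36 nt reads for the 19-30 nt library, all with the 3′ linker left on. Per the labels, RNA was cut from polyacrylamide gels, ligated to adapters, amplified by RT-PCR and sequenced on an Illumina 1G instrument. An aligner, a build and any filter are not given in the sources used here.

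Reads were trimmed with Python 3.11.15 and NumPy 2.4.6, asking for a linker overlap of at least 4 (26 nt reads) or 6 bases (36 nt reads) and at most 20% mismatches. Inserts of 18 nt or more without an uncalled base in the first 18 and with at least 6 distinct 3-mers were kept, 681447, 1423079 and 438048 in the 19-24, 24-30 and 19-30 nt libraries. In 26 nt reads inserts of 23 nt or more could not be sized. This held for 356644 kept reads of the 19-24 nt library, counted as short, and 1391143 of the 24-30 nt library, counted as long. In the 36 nt reads, 313389 without a linker were set aside as over 30 nt. The first 20 nt (whole inserts at 18 and 19 nt) had to match 1 or more of 141767 GENCODE M21 transcripts (GRCm38) perfectly, with at most 1000 places. No genome sequence was searched, so unique means unique among transcripts. Levels used all matches weighted by 1 over their number as the main value, with unique matches beside them. Shares and overlaps used unique matches. Gene names and bounds came from GENCODE, and the shorter gene from RefSeq (GRCm38.p6). Inverted repeats were searched with BLAST+ 2.17.0 (word size 11), intervals made with SciPy 1.17.1 and figures with matplotlib 3.10.9. The trimming, matching and overlap steps were tested on simulated data.

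There was 1 library per size window, so no test was made. The gene, the gene lists and the tested alternatives were chosen with earlier results of these data known. Genes named are D10Wsu102e, those within 100 kb, 10 oocyte siRNA genes, 11 box C/D assembly genes and the 5 nearest in read split. Alternatives changed the treatment of multiple matches, the match length, the linker rule, the border of short and long reads, the unsized reads, the counting of distinct sequences, the total, the weighting of pairs and the libraries used. A count of 0 allows 3 counts. Reads carry no molecular identifiers, so intervals and floors cover counting error only.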

Additional observations from a re-analysis of the deposited data

Results flagged for a closer look

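In the 19-30 nt library, 969 reads without a linker, set aside as inserts over 30 nt and used in no comparison, matched D10Wsu102e at a single place. They were flagged because they are a signal outside the reads described, above the 3 counts that a count of 0 allows. Of these, 195 (20.1%) were antisense and 774 sense. U was their first base in 59.0% of antisense and 70.9% of sense reads, and A stood at base 10 in 37.4% of antisense and 24.7% of sense reads. A linker missed by the trimming would also place a shorter insert here, and the number of such reads was not tested. The linker calls of this library depended strongly on the rule. A strict rule that allowed no mismatch and asked for a longer overlap set aside 777976 reads instead of 313389. It left 125164 usable inserts instead of 438048.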

How the results depend on the processing

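Pooled over the 3 libraries, 8 results were recomputed in 90 ways, and 50 of the 90 values stayed within the counting interval of the reported value. Some of the 50 could not change. The 19-24 nt library holds no long reads, so leaving out that library or its unsized reads left the long-read results as they were. The overlaps already count distinct ends, and the level does not depend on the border of short and long reads. The level, 29323 RPM, became 14439 with unique matches only, 182995 with every match in full, 27359 with whole inserts matched, 27561 with 18 nt matched, 27072 with the strict linker rule, 34159 without unsized reads of the 19-24 nt library, 59948 with distinct sequences, 53346 without small RNA classes in the total, and 21652 to 41511 with each library left out. The antisense share of short reads, 22.9%, became 43.5% in full, 42.4% weighted, 21.3% with whole inserts, 25.5% with 18 nt, 20.9% with distinct sequences and 18.7 to 24.5% with a library left out. That of long reads, 13.1%, became 42.9%, 35.3%, 14.7%, 16.3% and 11.3% in the same order, and 12.8 to 17.8% with a library left out. The first base U share of short reads, 63.3%, became 61.3% weighted, 61.5% with whole inserts, 58.2% with distinct sequences and 62.2 to 67.0% with a library left out. That of long reads, 78.3%, became 81.7% in full, 79.8% weighted, 80.0% with whole inserts, 75.2% with distinct sequences and 70.1 to 78.8% with a library left out. The base 10 A share of long reads, 44.5%, became 63.1% in full, 50.7% weighted, 41.6% with whole inserts and 37.4% with distinct sequences, and 44.4 to 44.5% with a library left out. The 10 nt overlap of long reads, 21.1%, became 10.9% in full and 70.3% with pairs weighted by reads, was 20.8% without the 5 pairs of highest read product, and 21.1 to 22.6% with a library left out. The weighted value counts each pair by its product of reads, so pair 1 (79 antisense and 45 sense reads) weighs heavily in it. No weighted value was made without the 5 pairs. The share of short pairs at 19 and 20 nt, 12.3%, became 8.69% with pairs weighted by reads. The causes were not tested. The weighted shares and the overlap without 5 pairs were added after seeing the data. The 24-30 nt library decides the long reads, and in the 19-30 nt library 432 long reads limit every share. No paired analysis was possible because each size window had 1 library.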
